A study of Oryza sativa Indica Group with 226 samples.

Results

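The 110 recombinant inbred lines of rice described here were divided into 2 groups by the transcript level of a single gene, LOC4337871 on chromosome 5. A marker was sought among probe sets annotated to exactly 1 gene of that chromosome, with a mean level of at least 5 (log2) and a correlation of at least 0.8 between the replicate 1 and replicate 2 arrays over the lines. Of the 11 genes that met this rule, LOC4337871 had the largest absolute difference between the parental means. All 110 lines were placed, 54 on the side of the parent Minghui 63 and 56 on the side of the parent Zhenshan 97, so every line array of the study (220 of 226 arrays) is used. Because measured values chose the groups, the levels of the marker itself are described below without a test.

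Affymetrix Rice Genome arrays were hybridised with RNA from shoots of etiolated seedlings harvested 72 h after germination, without any treatment. The lines are inbred descendants of Minghui 63 and Zhenshan 97, both varieties of indica rice, and each line has 2 arrays. Each parent has 3 arrays. No treatment, transgene or mutation separates the groups: they differ in which parent's form of the marker transcript they show, and the rest of the genome is a mixture of both parents in each line.

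In a recombinant inbred line each stretch of a chromosome comes from one parent or the other, and neighbouring genes tend to be inherited together because crossovers between them are rare. A transcript whose level follows the parental form of its own region is said to vary locally, and one whose gene lies on another chromosome varies at a distance from the marker. Shoots grown in the dark have etioplasts in place of chloroplasts and elongate rapidly, so genes of the photosynthetic apparatus and genes that loosen the cell wall are both of interest in this tissue. On arrays, a base difference under the probes and a difference in transcript level cannot be told apart.

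The marker LOC4337871, for which the annotation gives no usable name, had levels (log2) of 9.81, 10.19 and 10.09 on the Minghui 63 arrays and of 5.51, 5.84 and 6.03 on the Zhenshan 97 arrays. The mid-parent of 7.91 was the threshold. On the Minghui 63 side the lines ran from 9.44 to 10.68 with a median of 10.16, and on the Zhenshan 97 side from 5.28 to 6.32 with a median of 5.72. The nearest lines on the 2 sides were 3.12 apart, 0 lines lay within 0.5 of the threshold, and 0 lines had their arrays on opposite sides. Line levels resembled those of one parent or the other, and intermediate levels were not seen. The same 110 placements resulted from the replicate 1 arrays alone and from the replicate 2 arrays alone.

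**Figure D1:**
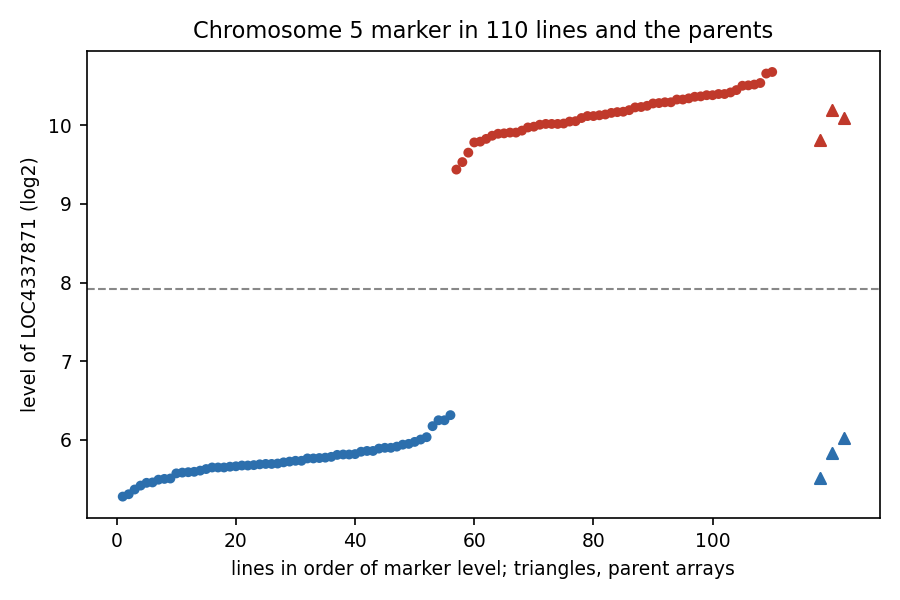
Level of LOC4337871 (log2) in the 110 lines, in order of level (circles), and on the 6 parent arrays (triangles), with the mid-parent of 7.91 as a dashed line. Red marks the Minghui 63 side and parent, blue the Zhenshan 97 side and parent; the sides are 3.12 apart at their nearest.

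The lines' parental origin around the marker was followed with the other strongly segregating genes, those with a parental difference of at least 1 and a replicate correlation of at least 0.8, each split at its own mid-parent. Distances are numbers of genes in the reference order, negative before the marker. LOC4337848, 30 genes before the marker, put all 110 lines on the same side as the marker did. Agreement was lower at each gene further out in that direction: 99 lines at LOC4337737 (-169), 91 at LOC4337669 (-255), 84 at LOC4337607 (-335) and 78 at LOC4337602 (-339). After the marker 85 lines matched at LOC4338039 (208), 81 at LOC4338062 (242), 71 at LOC4338746 (1161), 63 at LOC4339225 (1745) and 65 at LOC9268208 (2087). Among the 175 strongly segregating genes of other chromosomes, the share of lines on the marker's side ran from 38.2% to 68.2% with a median of 50.0%. The 68.2% belonged to LOC4337198 on chromosome 4 alone, and the next highest share was 60.0%.

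**Figure D2:**
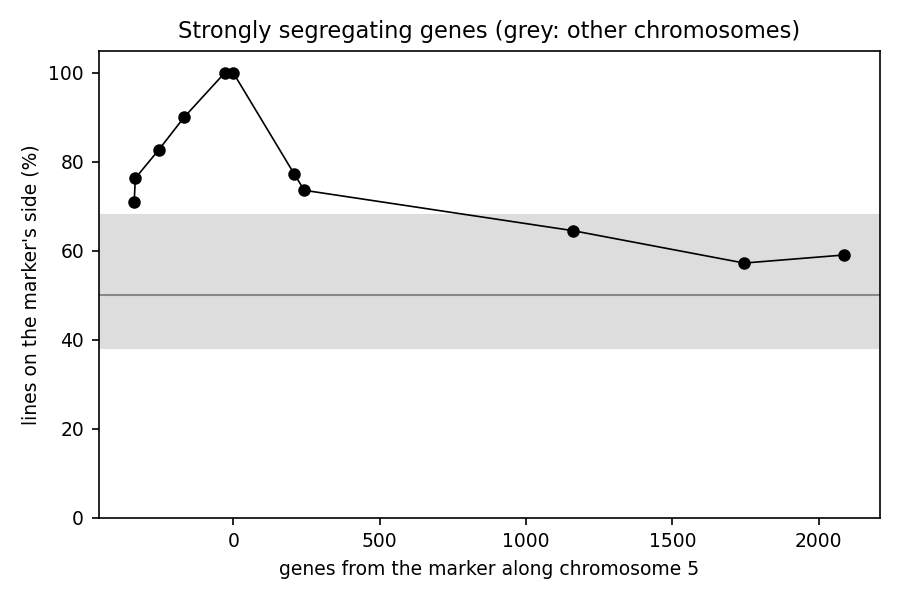
Share of the 110 lines (%) that each strongly segregating chromosome 5 gene places on the marker's side, against its distance from the marker in genes. The grey band spans the genes of other chromosomes, 38.2% to 68.2%, with their median of 50.0% as a line. Its top is set by LOC4337198 alone, and the next highest share is 60.0%. The share is 100% at the marker and at LOC4337848.

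With 1 value per line (the mean of its 2 arrays), 1242 of 27734 probe sets (4.48%) differed between the sides at an adjusted p under 0.05 (limma, Benjamini-Hochberg over all probe sets tested, marker left out). Of those tested, 807 (2.91%) were called higher on the Minghui 63 side and 435 (1.57%) on the Zhenshan 97 side. On chromosome 5 the share was 10.0% (145 of 1446), with 88 higher on the Minghui 63 side (6.09%) and 57 on the Zhenshan 97 side (3.94%). On the other chromosomes it was 5.39% (838 of 15546), with 569 higher on the Minghui 63 side (3.66%) and 269 on the Zhenshan 97 side (1.73%). Among probe sets with no single annotated gene it was 2.41% (259 of 10742). Array medians, averaged per line, ran from 4.81 to 4.94 on the Minghui 63 side and from 4.78 to 4.95 on the Zhenshan 97 side. Large differences were few: 45 called probe sets differed by at least 0.5 (log2), of which 17 were on chromosome 5, 8 on other chromosomes and 20 without a single annotated gene. A difference of at least 1 was reached by 6 probe sets of chromosome 5 and by 0 of other chromosomes.

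With 1 probe set per gene, 66 of the 262 measured genes within 300 genes of the marker were called (25.2%), against 51 of the 851 genes more than 500 genes away (5.99%). In the 100 genes that ended 100 genes before the marker, 22 of 45 measured genes were called (48.9%), 7 higher on the Minghui 63 side and 15 on the Zhenshan 97 side. In the 100 genes just before the marker 11 of 42 were called, 10 of them higher on the Minghui 63 side, and in the 100 just after it 8 of 49. Further out the arms were unlike: 14 of 80 genes were called from 300 to 500 genes before the marker (17.5%) and 4 of 57 at that distance after it (7.02%).

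**Figure D3:**
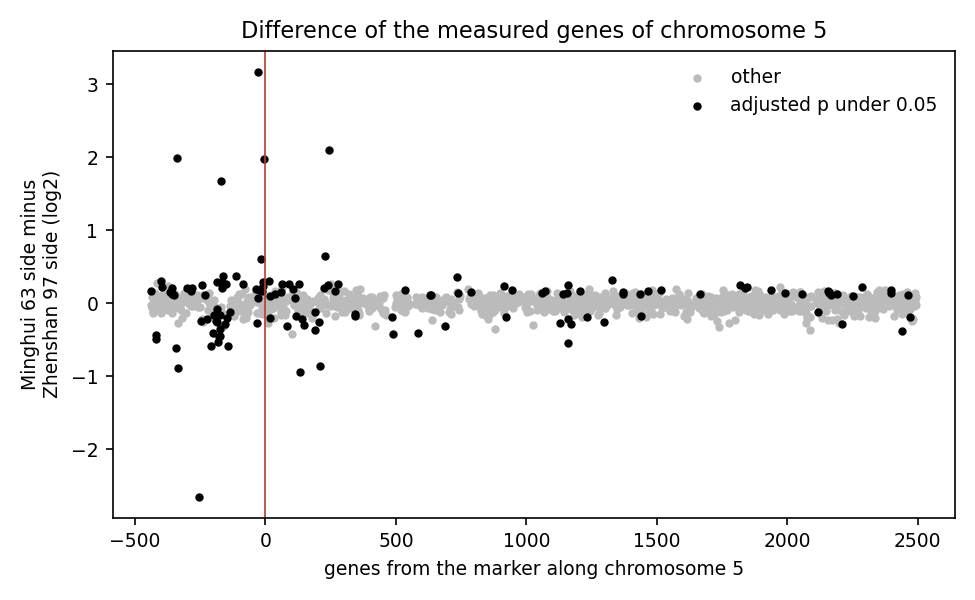
Difference between the marker's sides (Minghui 63 side minus Zhenshan 97 side, log2) for the measured genes of chromosome 5, against distance from the marker (red line) in genes. Black points have an adjusted p under 0.05 (limma); 66 of the 262 genes within 300 genes of the marker do.

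Among the probe sets tested, all with a mean of at least 5, LOC4337848 had the largest difference; with no filter on low values a called chromosome 5 probe set differed by 3.56. Its levels ran from 7.48 to 8.65 (median 8.15) on the Minghui 63 side and from 4.37 to 5.69 (median 5.02) on the Zhenshan 97 side. The sides did not overlap, which held for 2 of 27734 probe sets (0.00721%), this one and a probe set with no single annotated gene. The difference was 3.17 (SE 0.057; a factor of 8.98; limma adjusted p = 8.58e-79), beside 3.17 between the parents.

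LOC4337868, 6 genes before the marker, ran from 5.31 to 7.26 on the Minghui 63 side and from 3.52 to 5.49 on the other, so the sides overlapped at their edges. Its difference was 1.98 (SE 0.080, limma adjusted p = 4.5e-43), but a second probe set of the gene differed by -0.22 and was not called. On the replicate 2 arrays alone the difference was 1.06, and on the replicate 1 arrays alone 2.90. LOC4337669 was lower on the Minghui 63 side by 2.65 (SE 0.30, limma adjusted p = 3.26e-11). Its lines formed a low and a high cluster on both sides: levels ran from 3.59 to 8.91 (median 4.40) on the Minghui 63 side and from 3.63 to 9.19 (median 8.24) on the Zhenshan 97 side. Low and high lines stood on both sides for LOC4338062 too, the gene ranked second by the marker rule, with levels from 3.06 to 8.90 (median 7.95) and from 3.54 to 8.91 (median 4.03). It was higher on the Minghui 63 side by 2.1 (SE 0.35, limma adjusted p = 2.15e-05), while its other probe sets differed by 0.52 and 0.17. LOC4337602 (1.99) and LOC4337737 (1.67) were higher on the Minghui 63 side, and each had another probe set that differed by -0.02. LOC4337987 fell by 0.94 and LOC4337607 by 0.89 on that side.

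Of 190 measured chromosome 5 genes with a usable name, 18 were called, 8 higher and 10 lower on the Minghui 63 side, beside 135 of all 1250 measured genes of the chromosome (10.8%). At the probe set with the smallest p of each gene, these differences were under 0.3 (log2). SRS3, a kinesin-13 whose loss gives small round seeds, was lower on the Minghui 63 side: its lines ran from 8.78 to 10.14 (median 9.27) against 8.86 to 10.31 (median 9.57). The difference was -0.27 (SE 0.061, limma adjusted p = 0.00479), and -0.35 at a second probe set, whereas the Minghui 63 parent was 0.43 above the Zhenshan 97 parent (adjusted p = 0.132). DRM3, a member of the domains rearranged DNA methyltransferase family, was also lower on that side by -0.24 (SE 0.047, limma adjusted p = 0.000374; other probe sets -0.34 and -0.14), with a parental difference of 0.26. Both genes lie within 200 genes before the marker, and neither was called between the parents (adjusted p = 0.38 for DRM3). At the probe set with the smallest p, neither was called on the replicate 2 arrays alone (limma adjusted p = 0.139 for SRS3 and 0.069 for DRM3).

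Others lower on the Minghui 63 side were PSAH, a photosystem I subunit (-0.29), LTI6B, a small membrane protein induced by low temperature (-0.29), the protein phosphatase gene OsPP2C47 (-0.26), the Aux/IAA repressor IAA15 (-0.18) and SAM1, an S-adenosylmethionine synthetase (-0.16). Higher on that side were CSLC7, of the cellulose synthase-like family (0.25), the glutaredoxin GRXC7 (0.21), the metal transporter ZIP6 (0.13) and the metallothionein MT2C (0.11). A second probe set of LTI6B differed by 0.003 and one of OsPP2C47 by -0.07, and neither was called. With markers of the other chromosomes as covariates, PSAH (limma adjusted p = 0.141), LTI6B (0.0769), GRXC7 (0.0958) and ZIP6 (0.0729) lost the call. OsPP2C47, IAA15, SAM1, CSLC7 and MT2C kept it. Among 4 listed chromosome 5 genes with known effects on traits, SRS3 was called. The differences were -0.04 for the bacterial blight gene XA5 (limma adjusted p = 0.657) and -0.01 for the G protein alpha subunit D1 (adjusted p = 0.936), and the starch regulator RSR1 was not called either (adjusted p = 0.993).

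On other chromosomes the called differences were small, with a median absolute size of 0.17. LOC4346816, on chromosome 9, ran from 4.98 to 7.22 (median 6.38) on the Minghui 63 side and from 3.96 to 6.60 (median 5.45) on the Zhenshan 97 side. The sides overlapped over much of this range. The difference was 0.91 (SE 0.10, limma adjusted p = 4.46e-11), beside 4.20 between the parents. LOX1.1, a lipoxygenase gene on chromosome 3, was higher by 0.81 (SE 0.16, limma adjusted p = 0.000866), with lines from 6.26 to 9.71 against 5.22 to 9.39. LOC4332233 (0.77), LOC4337198 (0.76) and LOC4329813 (0.73) were higher on that side too. LOC4331097 fell by 0.72 (SE 0.10, limma adjusted p = 6.04e-08), with lines from 6.99 to 9.38 (median 7.77) against 7.04 to 9.65 (median 8.64). A second probe set of that gene differed by 0.08 and was not called.

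**Figure D4:**
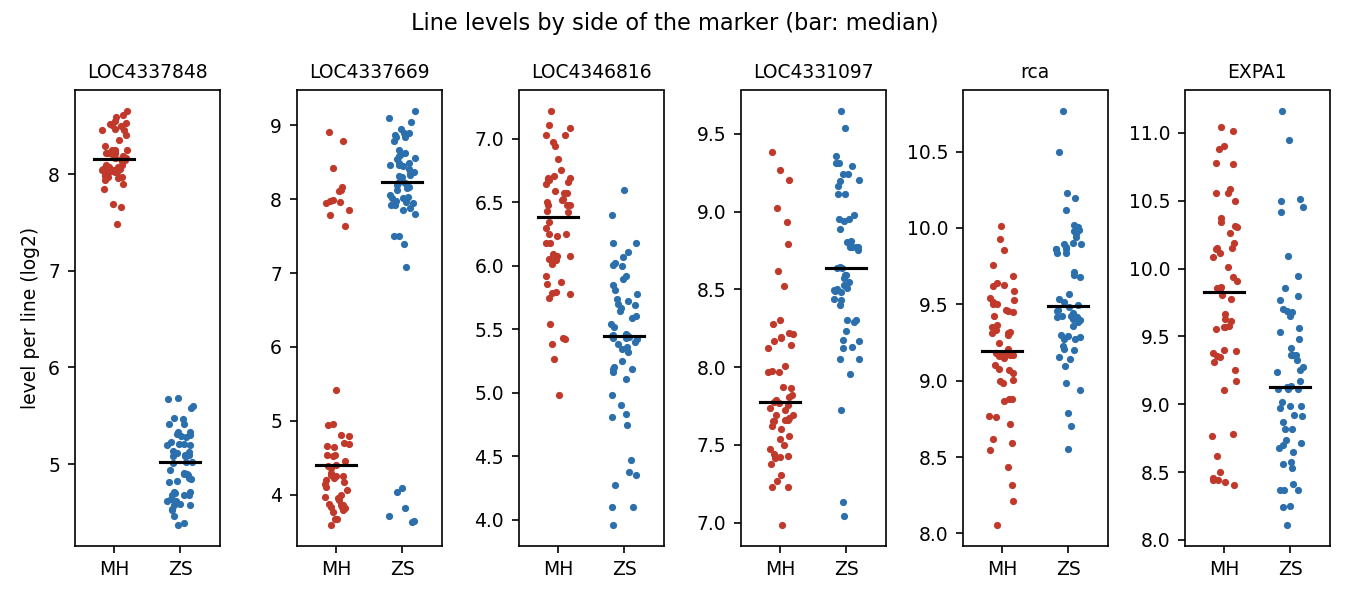
Levels (log2) of 6 genes in each line by side of the marker (MH, 54 lines on the Minghui 63 side; ZS, 56 lines on the Zhenshan 97 side), with the median as a bar and a scale of its own for each gene. The sides are apart for LOC4337848, form low and high clusters for LOC4337669 and overlap widely for the genes of other chromosomes.

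Of 7 measured genes in the list of light harvesting and photosynthesis, 3 were lower on the Minghui 63 side and 0 higher, with a median difference of -0.21. Over all 14620 genes the median was 0.02 and 6.31% were called, 4.30% higher and 2.01% lower on that side. The mean level of the 7 ran from 9.68 to 10.97 (median 10.46) across lines of the Minghui 63 side and from 9.93 to 11.46 (median 10.67) across the other. The Rubisco activase gene rca ran from 8.06 to 10.02 (median 9.19) on the Minghui 63 side and from 8.56 to 10.77 (median 9.49) on the other, a difference of -0.39 (SE 0.081, limma adjusted p = 0.00149). The other called members were PSAH and RBCS, the Rubisco small subunit (-0.19). Other tested probe sets of RBCS differed by -0.09 and -0.21 and were not called (limma adjusted p = 0.271 and 0.0633). Of 9 chlorophyll synthesis genes 0 were called, with a median of -0.14. With markers of the other chromosomes as covariates, rca kept its call (limma adjusted p = 0.0082), while PSAH (0.141) and RBCS (0.0522) lost it. Other named genes lower on that side, not members of these lists, were ALDP, a plastid aldolase (-0.36), the chlorophyll b reductase genes NYC1 (-0.36) and NOL (-0.33), GLN2, the plastid glutamine synthetase (-0.29), and GLO1, a glycolate oxidase (-0.28). Second probe sets of NOL (-0.09) and GLO1 (-0.10) were not called. All 5 genes lost the call with those covariates (limma adjusted p = 0.0504 for ALDP, 0.11 for NYC1, 0.151 for NOL, 0.162 for GLN2 and 0.0854 for GLO1). The laccase genes LAC20 (-0.48) and LAC7 (-0.40) were also lower.

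Of 22 expansin and xyloglucan enzyme genes, 3 were higher on the Minghui 63 side and 0 lower, with a median of 0.06. EXPA1, an expansin that loosens cell walls, ran from 8.41 to 11.05 (median 9.83) against 8.11 to 11.16 (median 9.13), a difference of 0.51 (SE 0.13, limma adjusted p = 0.0151). EXPA10 (0.10) and EXPB4 (0.09) were the others. With markers of the other chromosomes as covariates EXPB4 lost the call (limma adjusted p = 0.133) and EXPA10 kept it (0.0471). EXPA1 stood at the threshold (0.05 as rounded). EXPA10 was called on neither replicate alone. On the replicate 1 arrays 5 of the 22 were called and on the replicate 2 arrays 0. Of 55 cell cycle and DNA replication genes, 4 were higher and 0 lower, among them the replication clamp PCNA (0.13) and the cyclin CYCD2-2 (0.14). That is 7.27% of the list, near the 6.31% over all genes. On the replicate 1 arrays 0 members were called and on the replicate 2 arrays 1, and PCNA and CYCD2-2 lost the call with the covariates (limma adjusted p = 0.113 and 0.0804). The Aux/IAA gene IAA12 (0.27), the auxin synthesis gene TAR2 (0.22) and the growth-regulating factors GRF10 (0.20) and GRF1 (0.19) were also higher. With the covariates IAA12 kept its call (limma adjusted p = 0.00569), while TAR2 (0.0958), GRF10 (0.101) and GRF1 (0.166) lost it. TAR2 and GRF1 were called on neither replicate alone. Of 47 metal uptake and chelation genes 2 were higher and 4 lower, and of 70 genes of abscisic acid and late embryogenesis 3 were higher and 4 lower. The lower metal genes included the transporters NRAMP4 (-0.26) and ZIP4 (-0.16), and the lower abscisic acid genes the kinase SAPK3 (-0.25). With the covariates NRAMP4 lost the call (limma adjusted p = 0.056), while ZIP4 (0.0261) and SAPK3 (0.0425) kept it. ZIP4 was called on neither replicate alone.

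Of the 34 gene lists, 14 had 0 members called at an adjusted p under 0.05 (limma), among them gibberellin (13 measured), brassinosteroid (8), ethylene (14), aquaporins (20), the circadian clock (7) and cytosolic ribosomal proteins (21). Over all 14620 measured genes 6.31% were called. At that share lists of 7 to 21 genes would hold few called members or none, so these zeros say little about the lists. Of 52 auxin response genes 1 was higher on the Minghui 63 side and 1 lower, of 40 sugar and starch genes 2 and 2, and of 18 peroxidase and peroxide removal genes 2 and 1. In the last list the ascorbate peroxidase APX8 was lower (-0.37), and APX7 (0.15) and the peroxiredoxin PRXIIE-1 (0.16) were higher. SWEET11, a sucrose transporter, was higher by 0.16 (limma adjusted p = 0.00189). Single members were called among 63 calcium sensors (CML8, -0.28), 40 heat shock proteins and factors (HSF01, -0.25), 33 kinesins (SRS3) and 28 jasmonate genes (AOS, allene oxide synthase, 0.19). With markers of the other chromosomes as covariates APX7 (limma adjusted p = 0.103), CML8 (0.0537) and HSF01 (0.0943) lost the call. APX8, PRXIIE-1, SWEET11, SRS3 and AOS kept it. HSF01 and PRXIIE-1 were called on neither replicate alone.

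Beside these differences stand the marker genes of other tissues. Of 2 measured root markers 0 were called, beside 6.31% of all measured genes. Lists this short cannot be set against that share. Of 3 measured endosperm and aleurone markers, 1 was lower on the Minghui 63 side: GLB on chromosome 5 (-0.16, limma adjusted p = 0.0476). The annotation does not settle whether that symbol stands for the seed globulin, and the gene lies 192 genes before the marker. The mean of these 3 ran from 8.21 to 8.91 across lines of the Minghui 63 side and from 8.28 to 9.09 across the other. Of 3 green shoot markers 2 were lower, PSAH and RBCS, which the photosynthesis list also holds. The part of tissue composition in the differences was not tested, and fewer cells of a type and less RNA per cell cannot be told apart in whole shoots.

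The parents gave their own values for the same genes. Between them 2917 of 27735 probe sets (10.5%) differed (limma, 3 against 3 arrays). Of the 838 called probe sets on other chromosomes, 759 (90.6%) had the same sign between the parents as between the sides, beside 63.6% of all probe sets tested there, and on chromosome 5 it was 126 of 145 (86.9%) beside 65.1%. Called between the parents as well were 202 on other chromosomes and 42 on chromosome 5, all with the same sign. Parental differences were wider for the photosynthesis genes: rca differed by -1.52 and RBCS by -2.17, against -0.39 and -0.19 between the sides. Of the 57 called genes of other chromosomes selected by the naming rule, 54 had the parents' sign, and ABA1, RBBI3.3 and PBC1 had the opposite sign.

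**Figure D5:**
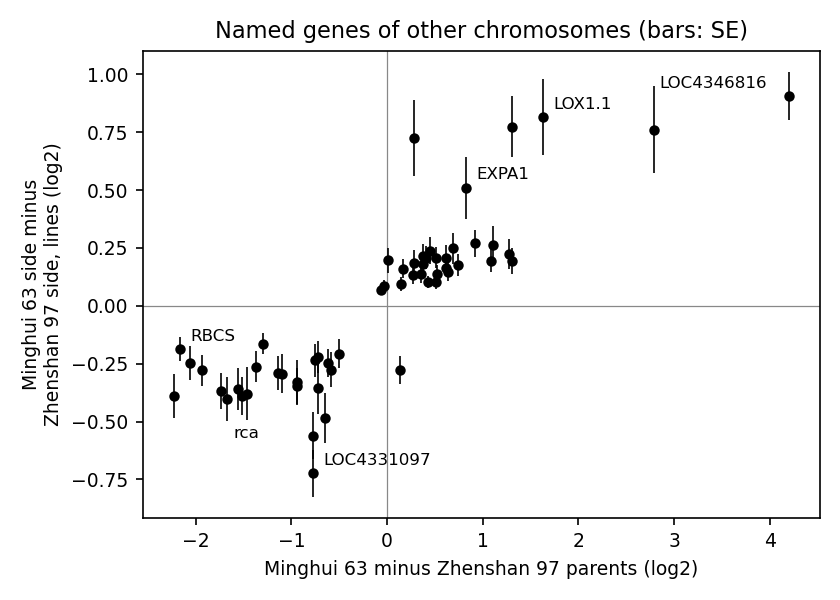
Difference between the marker's sides in the lines (vertical, log2, bars are SE) against the difference between the parents (horizontal, log2) for the 57 called genes of other chromosomes selected by the naming rule. Of them 54 have the same sign on both axes, and ABA1, RBBI3.3 and PBC1 do not.

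The comparison was repeated on each replicate's arrays with the lines split by the other replicate's arrays. Both splits gave the same 110 placements as the main split, so the crossing left the groups unchanged and checks only the tested arrays. On the replicate 1 arrays 1032 probe sets were called (3.72%), with 10.0% on chromosome 5, 3.97% on other chromosomes and 2.51% among those without a single annotated gene. On the replicate 2 arrays 239 were called (0.862%), with 3.80%, 0.875% and 0.447% in the same order. The difference between the sides itself differed between the replicate numbers at 6 probe sets (0.0216%). Called in the line means and on both replicates were 38 of the 145 probe sets of chromosome 5, 13 of the 838 of other chromosomes and 30 of the 259 without a single annotated gene. Of the 38, 26 lay within 300 genes of the marker. CSLC7 was among the 38, and SRS3 and DRM3 were not. The 13 comprised 12 genes, and the parents had the same sign at all 13. LOC4346816, LOX1.1, LOC4332233, LOC4337198, LOC4331097, LOC4347935 and LAC20 were among them, as was LOC4352083 on chromosome 12, whose 2 probe sets differed by -0.42 and -0.41 (named after its values were seen). The photosynthesis genes and EXPA1 were not: on the replicate 2 arrays rca differed by -0.41 (limma adjusted p = 0.0504) and EXPA1 by 0.25 (adjusted p = 0.409).

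The lines held 8 pairs with the same parental side at 95% or more of the strongly segregating genes, each pair on one side of the marker. Without the later line of each pair, 279 probe sets of other chromosomes and 95 of chromosome 5 were called, against 838 and 145 with all lines. Of the 838, 278 were among those called. With the parental side at 1 marker of each other chromosome as covariates, 240 and 91 were called. Those markers shared their side with the chromosome 5 marker in 41.8% to 58.2% of the lines. Split by LOC4338062 instead, 5 probe sets of other chromosomes and 29 of chromosome 5 were called.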

How the data were processed

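The values deposited by the authors are log2 levels of probe sets, used as given. The submitters' processing notes name RMA and affy, without versions or settings. Array medians ran from 4.77 to 5.07, and the number of arrays limits the precision. The marker, the gene lists and the naming rule were chosen with earlier results of these data known.

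Values were centred within replicate number, the mean over the lines was added back and the 2 arrays of a line were averaged. Probe sets with a mean of at least 5 were tested with limma 3.58.1 (lmFit and eBayes, R 4.3.3), 54 against 56 lines, with Benjamini-Hochberg adjustment and an adjusted p under 0.05. The labels call the 2 arrays of a line biological replicates. Replicate numbers stand in every line: the replicate 2 minus replicate 1 differences of line pairs had a median correlation of 0.705, and the number is balanced within lines.

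Genes came from the platform annotation (22436 probe sets with 1 gene, 95 with several, none named from the latter), with symbols, synonyms and gene order from the reference table of assembly ASM3414082v1, in which all 22436 were found. Lists were matched by symbol or synonym, so a member can enter through a synonym of another gene; after the values had been seen, removal of GLB from the endosperm list was tried and undone. With 1 probe set per gene the smallest p was used. Named genes were the 12 (chromosome 5) or 15 (other chromosomes) named calls with the largest difference in each direction, the 8 largest of any kind, up to 3 called members per list and every listed chromosome 5 trait gene; the text gives part of these. The segregating genes and those called on both replicates were chosen after their values were seen. On simulated data for this comparison (27734 probe sets), 98 of 100 differences of 0.5 and 100 of 100 of 1 were recovered. There were 11 false calls. Recovery of smaller differences was not tested, and the called differences on other chromosomes had a median absolute size of 0.17. How near-identical lines alter the number of false calls was not tested.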

Additional observations from a re-analysis of the deposited data

Results flagged for a closer look

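For 6 of 27734 probe sets (0.0216%) the difference between the marker's sides itself differed between the replicate 1 and replicate 2 arrays (limma on the replicate 2 minus replicate 1 values of each line, adjusted p under 0.05). The difference of LOC4337868 changed by -1.83 (log2), from 2.90 on replicate 1 to 1.06 on replicate 2. LOC4337848 changed by -0.80, from 3.57 to 2.76, and LOC4337737 by -0.59, from 1.97 to 1.38. LOC4337669 changed by 0.85, from -3.07 to -2.22. A probe set with no single annotated gene changed by 0.81, from 0.85 to 1.65. CIPK17, a calcium sensor-interacting kinase gene 170 genes before the marker, changed by -0.52, from 0.21 to -0.32, and was not called in the line means. Of the 6 probe sets 5 are on chromosome 5. What differed between the replicate numbers was not tested.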

How the results depend on the processing

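Counts are given for all probe sets, chromosome 5, other chromosomes and probe sets without a single annotated gene, in that order; the main counts were 1242, 145, 838 and 259. On the replicate 2 arrays alone (without replicate 1), with either split, 239, 55, 136 and 48 were called, and on the replicate 1 arrays alone 1032, 145, 617 and 270. Without the later line of each near-identical pair they were 472, 95, 279 and 98. Without lines whose replicate 1 profile matched another line best, an alternative chosen after seeing the data, they were 581, 103, 353 and 125. Split by the second marker they were 61, 29, 5 and 27, and with markers of other chromosomes as covariates 417, 91, 240 and 86. With a difference of at least 0.5 they were 45, 17, 8 and 20, and of at least 1 they were 13, 6, 0 and 7. With no filter on low values 486 probe sets of other chromosomes were called. The fit of 220 arrays with the replicate block and the line as a random block gave 1673, 194, 1136 and 343. Line means with no replicate block gave 1242, which was fixed in advance because the replicate number is balanced within lines. Calls between the parents among the chromosome 5 probe sets called by the split ran from 26 to 44 with one parent array left out, against 42. Of 98 differences of named genes and probe sets 0 turned direction past the threshold. They lost the call for 59 on replicate 2 alone, 40 with the covariates, 34 without near-identical lines, 33 on replicate 1 alone, 29 without the lines matching another best, 20 with no filter and 3 with arrays centred on their median. The causes were not tested. The split stayed at 54 lines on the Minghui 63 side in every alternative but the second marker, which gave 53.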
